A study of Mus musculus with 31 samples.

Results

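Ba/F3 is a mouse lymphoid cell line, usually described as pro-B, that depends on interleukin-3 for growth. In the study, polysomal RNA of monoclonal Ba/F3 cultures was sequenced in 14 libraries that carry a replicate number from 1 to 3 in their labels. Described here is the difference between the 6 libraries of replicate number 3 and the 8 libraries of numbers 1 and 2, out of 31 libraries in the whole series. Every clone, of either genotype, carried an shRNA against the endogenous Rpl10 and a retrovirally expressed human RPL10 cDNA, which was WT in the WT clones and had the R98S change in the R98S clones. R98S is an amino acid change in this large subunit protein that recurs in T-cell acute lymphoblastic leukaemia. Number 3 holds R98S clones 11, 13 and 35 and WT clones 28, 29 and 36. Number 1 holds R98S clones 11, 13 and 35 and WT clone 29, and number 2 holds R98S clones 13 and 35 and WT clones 28 and 29, which gives 5 R98S and 3 WT libraries in the comparison arm. The cultures are monoclonal, so libraries of 1 clone are not independent of each other, and WT clone 36 is present in number 3 alone. The labels do not say what distinguishes the replicate numbers, and culture, gradient, library and sequencing run cannot be told apart here.

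A mRNA that is being translated carries several ribosomes at a time, and such polysomes sediment faster than free mRNA or single ribosomes in a sucrose gradient. The RNA sequenced was that of the pooled fractions with 2 or more ribosomes, so a gene's share of a polysomal library depends both on the abundance of its mRNA and on the part of that mRNA in heavy fractions. Long coding sequences hold many ribosomes and short ones few, and short mRNAs therefore lie closer to the light edge of the pooled fractions. A further known feature of translation is the 5′ terminal oligopyrimidine (5′TOP) tract, a run of C and T that begins with C at the start of the mRNAs for ribosomal proteins and several translation factors, through which the mTOR kinase controls their entry into polysomes.

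The 14 polysomal libraries held between 8831180 and 20754046 reads counted on genes, and those of number 3 between 12148603 and 15099877. After division by the size factors of the deposited table, the sums per library were 12382109 to 13546555 for numbers 1 and 2 and 16404975 to 18467666 for number 3. The targeted gene, Rpl10 (chromosome X, 74270812 to 74273135, GRCm38), was read in every library, with normalized read counts of 666 to 2172 (median 1046) in numbers 1 and 2 and 1555 to 5567 (median 2656) in number 3. These values do not test the labels, because all clones carry the shRNA, the human transgene can add reads to the mouse gene, and 37.0% of the 31-base windows of Rpl10 also occur in other annotated genes. Of the B lymphoid markers, Cd79a (682 to 2283) and Cd79b (119 to 1288), the signalling chains of the B cell receptor, were read in all 14 libraries. Pax5 and Ebf1, which define the B lineage, did not exceed 1 normalized read in any of them. Gata2, a factor of progenitor and mast cells, reached 8442 to 25730. The 19 B lymphoid markers together took 0.0357% to 0.0499% of the reads in numbers 1 and 2 and 0.0200% to 0.0336% in number 3, with 6 of them at 0 everywhere, and the 21 myeloid and mast cell markers took 0.113% to 0.230% and 0.0668% to 0.103%, with 4 at 0 everywhere. Gata2 alone took 0.0992% to 0.19% and 0.0475% to 0.0706%, and the other 20 took 0.0138% to 0.0396% and 0.0193% to 0.0349%, which overlap. The 15 erythroid and megakaryocyte markers, 1 of them at 0 everywhere, took 0.0662% to 0.0895% in numbers 1 and 2 and 0.0435% to 0.0594% in number 3. The shares of T lymphoid and of fibroblast and epithelial markers overlapped. Of the 12 myeloid and mast cell markers that could be tested 4 rose and 1 fell, and of the 4 B lymphoid ones 2 rose and 1 fell. Of the 7 erythroid and megakaryocyte ones 1 rose and 1 fell, where 35.4% of all tested genes rose and 36.7% fell. Whether these markers have a part in the differences below was not tested, and in such bulk samples fewer cells of a type and less RNA per cell cannot be told apart.

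For 8 genes on which the comparison turns, the 30 bases from 10 before to 20 after an annotated RefSeq transcription start (GRCm38.p6, transcribed strand) are given, with any run of C and T that begins with C and is at least 7 bases long in capitals. They were chosen as ribosomal protein mRNAs that rose with and without such a run, translation factor mRNAs of the 5′TOP class that fell with and without one, and mRNAs of other classes that moved in either direction.
Rpl34, chr3:130730318-130730347, minus strand: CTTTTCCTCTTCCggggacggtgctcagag
Rps13, chr7:116334171-116334200, minus strand: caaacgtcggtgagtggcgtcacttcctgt
Eef1a1, chr9:78481705-78481734, minus strand: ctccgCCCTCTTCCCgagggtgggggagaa
Eif4b, chr15:102073763-102073792, plus strand: tcccgtcggacgccgcgccaCCCCCTCgcg
Eef2, chr10:81176621-81176650, plus strand: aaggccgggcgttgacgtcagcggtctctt
Cox7b, chrX:106015690-106015719, plus strand: atctcgcgacatctcaccaattctcatttg
Mrps18c, chr5:100798749-100798778, plus strand: gaagaggaagggcggagaaccatggccgct
Arid1a, chr4:133756750-133756779, minus strand: tgccatcaggctgccggtggcagaggcgct
The run is 13 bases long in the window of Rpl34, 10 in that of Eef1a1 and 7 in that of Eif4b. There is none in the windows of Rps13, Eef2, Cox7b, Mrps18c and Arid1a. The Eef2 window ends in a stretch of C and T, so a run that continues past its edge would not be seen. Rpl34 has another annotated start, whose window holds no such run, and the windows of Rps28, Btf3 and Naca hold none either.

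The shift was wide, and it ran in both directions. Of 10707 genes with a mean normalized read count of at least 10, out of 41255 in the table, 7725 (72.1%) differed between number 3 and numbers 1 and 2 with genotype as a covariate (limma on log2(value + 1), Benjamini-Hochberg adjusted p below 0.1). Of these, 3794 (35.4% of tested genes) were higher and 3931 (36.7%) lower in number 3, and 3123 of the called genes changed more than 2-fold (774 after removal of a trend with length and GC content, described below). The median absolute log2 difference of called genes was 0.87 and the median over all tested genes was −0.03. These log2 differences are on the log2(value + 1) scale, which understates the change of genes with few reads, and errors given as ± are the SE of the fit over 14 libraries. The share of higher calls depends on the scaling: with every library set to the same total, which was tried after the data were seen, the median of all genes moved to −0.45 and 2290 of 8102 calls were higher (28.3%, against 49.1% with the deposited size factors). All differences below are therefore relative to the deposited size factors, and the total scaling lowers each of them by about that amount.

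The shift was shared by the genotypes. Within R98S, 6486 genes (60.6%) differed between number 3 and numbers 1 and 2, 3203 higher (29.9%) and 3283 lower (30.7%). Within WT, 6598 (61.6%) did, 3292 higher (30.7%) and 3306 lower (30.9%). The 2 sets share 5350 genes, 82.5% of the R98S set and 81.1% of the WT set, of which 5338 had the same sign, 2719 higher and 2619 lower in number 3. Across all 10707 genes the 2 log2 differences, which have no library in common, had a Pearson r of 0.87 and a Spearman rho of 0.88 (genes are not independent replicates), and 86.8% had the same sign. For 2292 genes (21.4% of those tested) every number 3 library was above every library of numbers 1 and 2 within R98S and also within WT, and for 2222 genes (20.8%) every one was below. A difference of the shift between the genotypes passed the test for 3 genes (0.028%), with 787 at an unadjusted p below 0.05 in limma, 3 called by edgeR and 55 by DESeq2. With 1 library left out limma called 1 to 46, the highest without the number 1 library of WT clone 29.

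**Figure D1:**
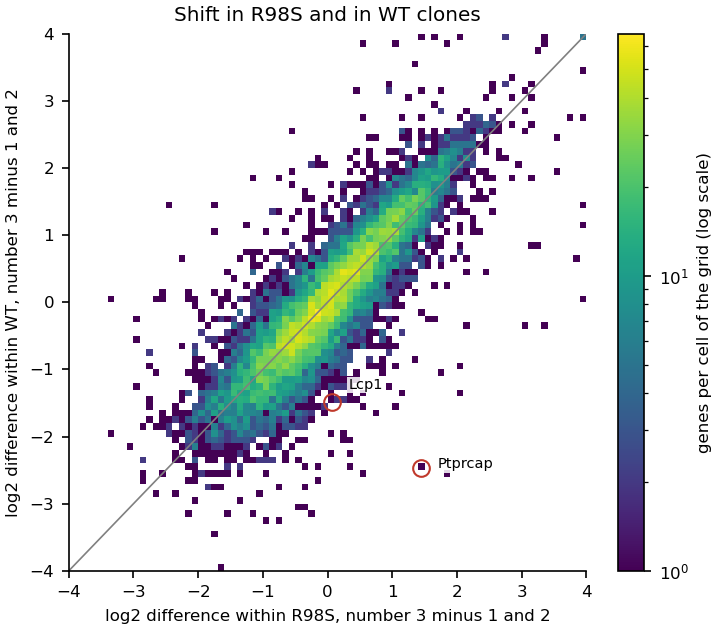
Each cell of the grid counts genes by their log2 difference between number 3 and numbers 1 and 2 within R98S (horizontal) and within WT (vertical), on the deposited size factors and with values beyond 4 in either direction drawn at the edge. Most of the 10707 genes lie along the diagonal (Pearson r 0.87), and Ptprcap and Lcp1 (circled), whose shift differed between the genotypes, lie off it.

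Number 3 differed from each of the other numbers. Against number 1 alone, 6928 genes (64.7%) differed, and against number 2 alone, 7102 (66.3%). These comparisons share the number 3 libraries. Between numbers 2 and 1, limma and edgeR each called 0 of 10707 genes and DESeq2 called 1, Prex2, which was higher in number 2. In limma 33 genes had an unadjusted p below 0.05. Fewer genes passed that unadjusted threshold than chance alone would give, so the few calls do not show numbers 1 and 2 to be alike. The list medians between numbers 2 and 1 were −0.07 for large subunit ribosomal proteins, 0.05 for oxidative phosphorylation subunits and 0.01 for chromatin remodelling genes. Over the 42 lists drawn up they ran from −0.32 for 34 immediate early genes to 0.50 for the 12 tested myeloid and mast cell markers, whose median between number 3 and numbers 1 and 2 was also 0.50, but 1.01 within R98S and −0.26 within WT.

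Genes with short coding sequences were higher in number 3 and genes with long ones lower. In quintiles of coding length the median log2 difference was 0.98, 0.34, −0.07, −0.36 and −0.78 from the shortest to the longest, and 75.8% of the shortest quintile were called higher while 73.3% of the longest were called lower. With the total scaling these medians were 0.55, −0.09, −0.50, −0.79 and −1.21, so that the second quintile turned negative. The Spearman rho of the log2 difference with coding length was −0.62 over 10254 genes with a matched GENCODE transcript. It was −0.60 within each genotype and 0.08 for number 2 against number 1. The rho with the length of the whole transcript was −0.59, with the length of the 3′ UTR −0.29 and with GC content −0.28. Between numbers 2 and 1 these were −0.01, −0.12 and 0.34, so the rho with GC content was larger there than for number 3 and of the other sign. In the 14 total mRNA libraries of the same clones and numbers the quintiles of coding length differed by little, with medians from 0.02 to −0.06.

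The lengths of coding sequence and 3′ UTR both went with the shift. Genes in the shortest tertile of both had a median log2 difference of 1.06, and those in the shortest tertile of coding length with the longest 3′ UTRs had 0.32. In the longest tertile of coding length the medians were −0.51 with short and −0.73 with long 3′ UTRs. Expressed in reads, the quintile of genes with the shortest transcripts took 22.1% to 28.5% of the reads in numbers 1 and 2 and 38.9% to 42.7% in number 3, against 21.3% to 25.3% in total mRNA. The quintile with the longest transcripts took 13.5% to 17.1% in numbers 1 and 2 and 8.17% to 9.44% in number 3, against 19.4% to 22.5% in total mRNA. Both groups of libraries were thus apart from each other in these shares without overlap.

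Each culture can also be compared with its own total mRNA. The polysomal minus total mRNA log2 difference of the shortest quintile exceeded that of the longest quintile by 0.02 in the number 1 library of WT clone 29, the lowest, and by 1.28 in the number 2 library of WT clone 28, the highest of numbers 1 and 2. In number 3 the 6 values were 1.96 to 2.59. The number 2 library of WT clone 28 was thus the one nearest to number 3, and no value of numbers 1 and 2 reached those of number 3.

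**Figure D2:**
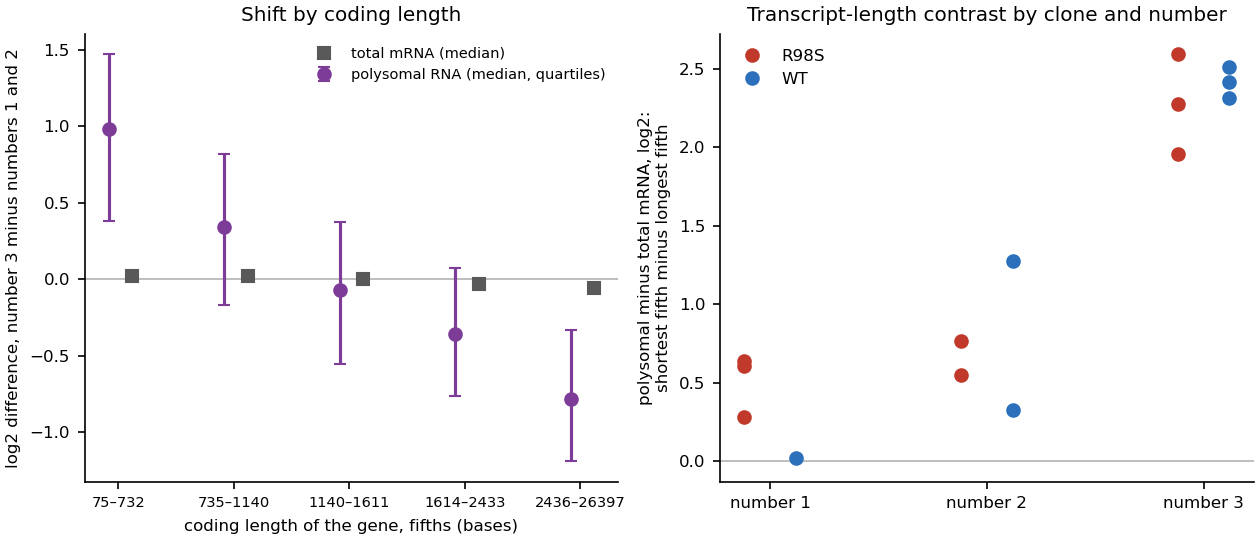
Left, the median log2 difference of polysomal RNA (with quartiles) and of total mRNA (median) between number 3 and numbers 1 and 2, in quintiles of coding length in bases; right, for each clone and number, the polysomal minus total mRNA log2 difference of the shortest quintile of transcripts minus that of the longest, by replicate number and genotype. Polysomal medians fall from 0.98 to −0.78 while those of total mRNA stay between 0.02 and −0.06, and the 6 points of number 3 (1.96 to 2.59) lie above the 8 others (0.02 to 1.28).

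Ribosomal protein mRNAs rose in number 3 in both subunits. Large subunit genes rose in 48 of 50 tested cases (0 fell, against 35.4% of all tested genes higher and 36.7% lower), with a median log2 difference of 1.30, and small subunit genes in 33 of 35 (1 fell), with a median of 1.37. After removal of the length and GC trend 26 of 50 large subunit genes were higher and 9 lower, and 14 of 33 small subunit genes were higher and 4 lower. Of all 10251 genes in that fit 27.9% were higher and 25.9% lower. Their share of the reads was 4.64% to 6.64% in numbers 1 and 2 and 8.23% to 10.2% in number 3 for the large subunit, and 3.02% to 4.89% and 5.69% to 7.57% for the small subunit. In total mRNA the medians were −0.17 and −0.08, and 3 and 0 of the members fell there, where 1.49% of all tested genes fell and 3.30% rose.

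Rpl34, a large subunit protein, had 5182 to 10666 (median 5613) in the 8 libraries of numbers 1 and 2 and 36633 to 45992 (median 40439.9) in the 6 of number 3. The 2 groups did not overlap, and the library of R98S clone 11 with number 1 was the highest of the lower group. The log2 difference was 2.65 ± 0.16, with 2.62 within R98S and 2.68 within WT (limma, adjusted p = 2.9e-09). Rpl22l1, a paralogue of the large subunit protein Rpl22, rose most in this list, with 1439 to 3482 (median 1605) in numbers 1 and 2 and 13138 to 22521 (median 14975) in number 3 (log2 difference 3.1 ± 0.19). Rpl32 (2.14 ± 0.15) and Rpl15 (1.68 ± 0.12) also rose, and 44.8% and 26.6% of their 31-base windows occur in other annotated genes, so part of their reads may belong to copies.

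In the small subunit, Rps15a rose by 2.28 ± 0.14, Rps27l by 2.06 ± 0.13, Rps28 by 1.99 ± 0.15 and Rps13 by 1.86 ± 0.13, each without overlap between the groups in either genotype, though Rps27l turned to −0.089 after removal of the length and GC trend. Rps15a had 6521 to 16250.2 (median 9692) in numbers 1 and 2 and 37210.5 to 62723 (median 42801) in number 3. The targeted Rpl10 had a log2 difference of 1.22 ± 0.18 (adjusted p = 1.6e-05), with 1.13 within R98S and 1.33 within WT, and −0.059 after removal of that trend. In the number 3 libraries of R98S clones 11, 13 and 35 it was at 1987, 1555 and 2046, and in those of WT clones 28, 29 and 36 at 3900.1, 5567 and 3267. The R98S and WT levels are thus apart within number 3, and the log2 difference in total mRNA was −0.86 (adjusted p = 0.13).

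Rps18, Rpl23a and Rpsa did not rise, and 27.9%, 83.0% and 31.2% of their 31-base windows occur in other annotated genes. The lowest log2 difference among large subunit genes, −0.027, belonged to another gene that is not named here. Rps18, a small subunit protein, fell by 0.86 on the log2 scale with 57.7 to 118 (median 100.4) in numbers 1 and 2 and 37.3 to 57.2 (median 45.1) in number 3. Rpl23a, a large subunit protein, was at 0.57 ± 0.44, and at −0.99 after removal of the length and GC trend. Rpsa, the laminin receptor protein of the small subunit, had 34718 to 67598 (median 36938) in numbers 1 and 2 and 37165 to 50152 (median 47835) in number 3, a log2 difference of 0.14 ± 0.15 that did not pass the test and became negative with quantile normalization (−0.61), with the total scaling (−0.29) and after removal of the length and GC trend (−0.22).

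Other mRNAs of the 5′TOP class divided by length. Of 22 tested, 13 rose and 4 fell, and their median was 0.43 with the deposited size factors. It was −0.22 with quantile normalization, −0.0022 with the total scaling and −0.0035 after removal of the length and GC trend. After that removal 5 of the 22 were higher and 8 lower. Their Spearman rho with coding length was then still −0.77, against −0.03 for all tested genes. Of the 10 with a coding length below 1000 bases, 9 rose and 0 fell (median 1.10), while of the 12 longer ones 4 rose and 4 fell (median 0.0012). Of all tested genes of such lengths, 2290 of 3363 rose (median 0.75) below 1000 bases and 1287 of 6891 (median −0.35) at 1000 bases or more, and a difference between the class and these genes was not tested. Btf3 and Naca, subunits of the complex that binds nascent chains at the ribosome, rose by 1.73 ± 0.11 and 1.64 ± 0.13, and Tmsb4x, which binds monomeric actin, by 2.29 ± 0.23. The 4 that fell were Eif4b, a helper of the eIF4A helicase, by 1.29 ± 0.11, Eef2, the translocation factor, by 1.14 ± 0.15, Pabpc1, the poly(A) binding protein, by 0.75 ± 0.14, and Eef1a1, which delivers aminoacyl-tRNA, by 0.38 ± 0.12, all on the log2 scale. Eef2 was at 45955 to 100790 (median 54306) in numbers 1 and 2 and at 23631 to 33204 (median 27170.2) in number 3, without overlap, whereas the values of Eef1a1 overlapped (202849 to 264714 against 146133 to 212924). For Btf3 and Eef1a1, 43.9% and 51.5% of the 31-base windows occur in other annotated genes.

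A run of C and T in the annotated start window was similarly frequent in genes that rose and in genes that fell. A run of C followed by at least 6 further C or T, anywhere in the 30-base window and on the transcribed strand only, was found for 30 of 62 ribosomal protein genes with a RefSeq window (48.4%), for 6 of 14 other 5′TOP genes (42.9%) and for 16.7% of 7962 tested genes with a window (13.5% of all 32851 windows, of which a gene can have several). Among called genes it was found in 16.2% of those that rose and 17.4% of those that fell, and in 16.3% of those not called. Within the shortest quintile of coding length the median log2 difference was 1.02 with and 0.98 without the run, and within the longest −0.80 and −0.79. A match is a description of these letters and not a tested 5′TOP site, and a run that crosses the window edge can be missed.

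**Figure D3:**
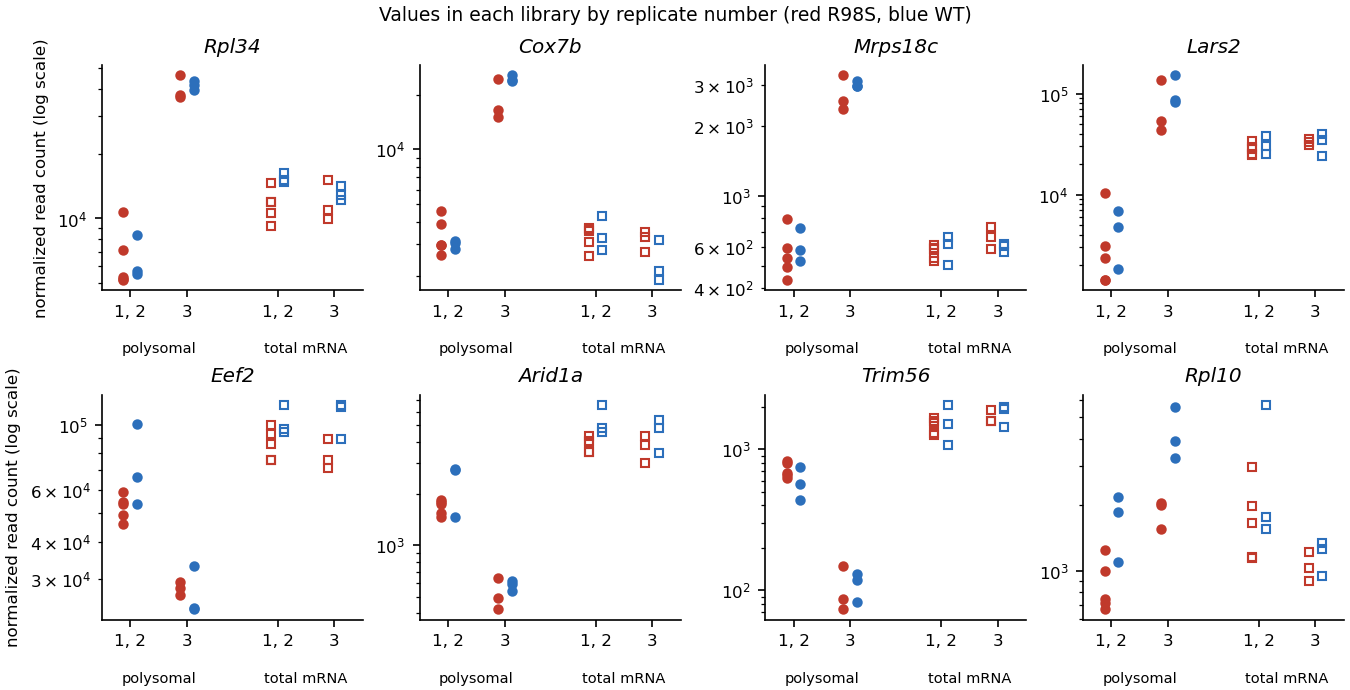
Normalized read counts (log scale) of Rpl34, Cox7b, Mrps18c, Lars2, Eef2, Arid1a, Trim56 and Rpl10 in each polysomal and total mRNA library, by replicate number (1 and 2 against 3) and genotype (red R98S, blue WT), on the deposited size factors. The groups of Rpl34 (36633 to 45992 in number 3 against 5182 to 10666) lie apart in polysomal RNA and overlap in total mRNA. Those of Rpl10 overlap in polysomal RNA over both genotypes, and Eef2, Arid1a and Trim56 lie lower in number 3.

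Initiation factors divided in the same way. Of 50 tested, 28 rose and 12 fell (median 0.47), against 35.4% of all tested genes higher and 36.7% lower. The median was 0.037 with the total scaling and 0.074 after removal of the length and GC trend. Below 1000 coding bases 19 of 22 were higher, and 9 of 28 longer ones were. Of all tested genes 2290 of 3363 and 1287 of 6891 were higher at these lengths. Eif1ax, the scanning factor eIF1A, rose by 1.95 ± 0.14, Eif4e, the cap-binding protein, by 1.83 ± 0.14, Eif1b by 1.63 ± 0.13 and Eif2s2, the beta subunit of eIF2, by 1.98 ± 0.17. Eif4g1, the scaffold that joins cap and ribosome, fell by 1.25 ± 0.16 and Eif3a, the largest subunit of eIF3, by 1.14 ± 0.14. The mRNAs of Eif4e and Eif4g1, whose proteins bind each other, thus moved in opposite directions, without overlap between number 3 and numbers 1 and 2. Eif4ebp2, an inhibitor of Eif4e with a coding length of 360 bases and a transcript of 5784, was the only initiation factor gene below 1000 coding bases that fell, with 800 to 2158 (median 1735) in numbers 1 and 2 and 281 to 632 (median 519) in number 3 (log2 difference −1.79 ± 0.22).

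Of the 20 cytosolic aminoacyl-tRNA synthetase genes, 4 rose and 8 fell (20% and 40%), and their median was −0.26 (0.02 within R98S and −0.42 within WT), which became 0.15 after removal of the length and GC trend. Dars (1.04 ± 0.15) and Farsb (0.62 ± 0.13), which charge tRNAs with aspartate and phenylalanine, rose, and Nars (−0.58 ± 0.14) and Wars (−0.64 ± 0.16), for asparagine and tryptophan, fell. Of 120 ribosome biogenesis factors, 49 rose and 39 fell (40.8% and 32.5%, near the 35.4% and 36.7% of all tested genes, with a median of 0.12, but −0.04 with quantile normalization and −0.31 with the total scaling). Their log2 difference had a Spearman rho of −0.77 with coding length.

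Most genes of the mitochondrial ribosome and of oxidative phosphorylation rose. Of 76 mitochondrial ribosomal protein genes tested, 73 rose and 0 fell (median 1.37), where 35.4% of all tested genes rose and 36.7% fell, including all 47 of the large subunit and 26 of 29 of the small subunit. Mrps18c had 433 to 795 (median 561) in numbers 1 and 2 and 2353 to 3288 (median 2963) in number 3 (log2 difference 2.29 ± 0.14), and Mrpl32 had 370.2 to 538 (median 455) in numbers 1 and 2 and 1262 to 2961 (median 2207) in number 3 (2.07 ± 0.12). For Mrps18c, 34.5% of the 31-base windows occur in other annotated genes. In total mRNA 1 of the 76 was called, where 4.79% of all tested genes were, and the median there was −0.06.

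Of 75 nuclear subunits of oxidative phosphorylation, 69 rose and 1 fell, with a median of 1.58, where 35.4% of all tested genes rose and 36.7% fell. All 11 tested cytochrome c oxidase genes rose (median 2.07), as did 34 of 36 of complex I (1.56), 3 of 4 of complex II (1.42), 8 of 9 of complex III (1.52) and 13 of 15 of ATP synthase (1.80). Cox7b, a small subunit of cytochrome c oxidase, had 2632 to 4600.4 (median 3009) in numbers 1 and 2 and 15145 to 25467 (median 23923) in number 3, and the groups did not overlap. Within number 3, R98S clones 11 and 35 had the lowest values, 15145 and 16506, and R98S clone 13, at 24248, lay among the 3 WT clones. Its log2 difference was 2.71 ± 0.15 (adjusted p = 2.9e-09). Cox7a2 (2.16 ± 0.13), the complex I subunit Ndufs4 (2.29 ± 0.14) and the ATP synthase coupling factor Atp5j (2.12 ± 0.13) rose to a similar degree.

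Length again separated the members of these complexes. All 63 oxidative phosphorylation genes with a coding length below 1000 bases rose (median 1.65), and of the 11 longer ones 5 rose and 1 fell (median 0.28). Of all tested genes of these lengths 2290 of 3363 (median 0.75) and 1287 of 6891 (median −0.35) rose. The gene that fell was Sdha (−0.56 ± 0.14), the flavoprotein of complex II. The 5 that did not pass the test were Ndufs1 (−0.26 ± 0.20) and Ndufv1 (−0.28 ± 0.17), catalytic subunits of complex I, Uqcrc1 (0.28 ± 0.15), a core protein of complex III, and the catalytic ATP synthase subunits Atp5a1 (−0.04 ± 0.13) and Atp5b (0.14 ± 0.12); Uqcrc1 and Atp5b became negative with quantile normalization and the total scaling, and Atp5a1 became positive after removal of the length and GC trend. Of the 9 tested genes encoded by the mitochondrial genome itself, 3 rose and 2 fell (33.3% and 22.2%, no more than the 35.4% and 36.7% of all tested genes), and their median of 0.32 was −0.06 with quantile normalization, −0.11 with the total scaling and −1.86 after removal of the trend. mt-Atp8 (1.98 ± 0.53), mt-Nd2 (0.99 ± 0.28) and mt-Cytb (0.73 ± 0.22) rose, all of them turning negative after removal of the trend and mt-Cytb also with quantile normalization, and mt-Nd4, with 62.8% of its 31-base windows also in other annotated genes, fell (−0.39 ± 0.18). Their libraries overlapped, with mt-Atp8 at 71.9 to 1724 (median 450.5) in numbers 1 and 2 and 882 to 1938 (median 1713) in number 3.

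Proteasome genes rose by subcomplex. Of 38 tested, 32 rose and 1 fell (median 0.94), where 35.4% of all tested genes rose and 36.7% fell. All 18 genes of the 20S core rose (median 1.35), with Psma3 at 2.18 ± 0.15, Psmb2 at 1.78 ± 0.12 and Psma1 at 1.51 ± 0.10. Of the 6 ATPases of the 19S cap 4 rose (median 0.34), and of its 14 other subunits 10 rose and 1 fell (0.51). The median coding lengths were 747 bases for the 20S core, 1287 for the ATPases and 1147.5 for the other subunits, and of all tested genes 2290 of 3363 rose below 1000 bases and 1287 of 6891 at 1000 bases or more. A difference between these subcomplexes and other genes of such lengths was not tested. The one that fell, Psmd2 (−0.45 ± 0.12), encodes a large scaffold subunit and had 4673 to 6879 (median 5729) in numbers 1 and 2 and 3372 to 5047 (median 4205) in number 3, and 31.6% of its 31-base windows occur in other annotated genes.

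**Figure D4:**
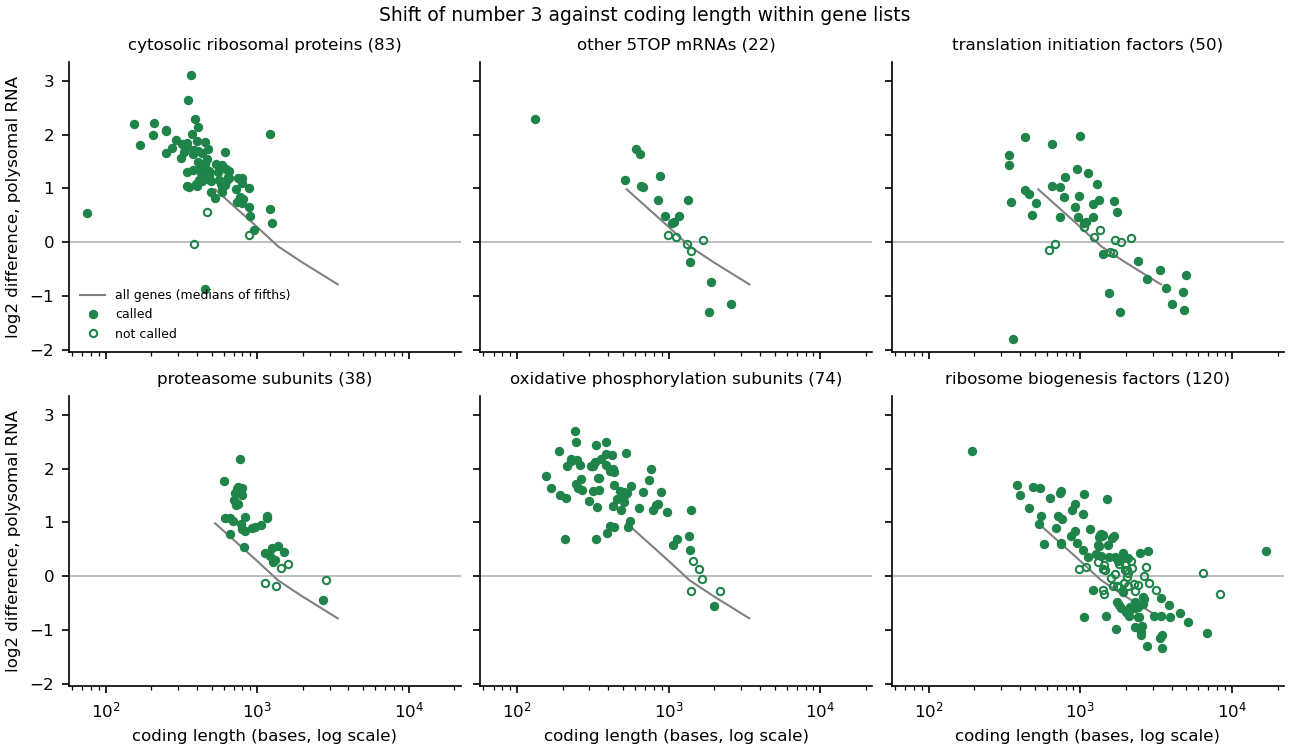
The log2 difference of polysomal RNA between number 3 and numbers 1 and 2 (deposited size factors) against coding length in bases (log scale) for the members of 6 gene lists; filled points passed the test, open points did not, and the grey line joins the medians of all genes. Members of the same list lie higher the shorter their coding sequence, with a Spearman rho of −0.61 for ribosomal proteins, −0.62 for oxidative phosphorylation and −0.76 for proteasome subunits.

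Further lists with short coding sequences held more members that rose than fell, against 35.4% and 36.7% of all tested genes. Of 33 genes of the translocon, the signal peptidase and the oligosaccharyl transferase, 21 rose and 6 fell (63.6% and 18.2%, median 0.76), among them Sec61g (2.53 ± 0.14), Sec61b (2.21 ± 0.18) and Spcs1 (2.35 ± 0.14), which act where proteins enter the endoplasmic reticulum. Of 34 antioxidant genes 19 rose and 6 fell (55.9% and 17.6%, median 0.53), with thioredoxin, Txn1, at 2.41 ± 0.14 and the peroxiredoxin Prdx1 at 1.75 ± 0.12. After removal of the length and GC trend the median was 0.098 for the translocon list and 0.11 for the antioxidant list. Of 31 actin and cytoskeleton genes 17 rose and 7 fell (54.8% and 22.6%), and their median of 0.54 became −0.09 with quantile normalization. Cfl1 and Pfn1, cofilin and profilin, rose by 1.54 ± 0.13 and 1.5 ± 0.13. Of 70 clustered histone genes, most of whose mRNAs lack a poly(A) tail, 14 passed the filter on low values, some of them only through their reads in number 3, so no count of their changes is given. Hist1h4b was at 0 to 6.66 in numbers 1 and 2 and 17.6 to 33.4 in number 3 and Hist1h1e at 3.85 to 29.4 and 27.4 to 191, with 77.1% and 34.7% of their 31-base windows also in other annotated genes, but the share of the reads taken by all 70 overlapped, at 0.00483% to 0.0317% and 0.00702% to 0.0308%.

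Several single genes of other lists followed the same pattern. Hspe1, the mitochondrial co-chaperonin, rose by 2.55 ± 0.16, the replication protein Rpa3 by 2.53 ± 0.14, the cytokine Mif by 2.27 ± 0.18, the purine salvage enzyme Hprt by 2.01 ± 0.16 and the vacuolar ATPase subunit Atp6v1g1 by 2.13 ± 0.16. B2m, the light chain of MHC class I, rose by 1.64 ± 0.14 but turned to −0.45 after removal of the length and GC trend, and the survivin gene Birc5 rose by 1.54 ± 0.12, the glycolytic enzyme Pgam1 by 1.15 ± 0.11 and Idi1 of sterol synthesis by 1.09 ± 0.11. For Mif, Pgam1, Hspe1 and Idi1, 60.5%, 37.1%, 30.5% and 27.1% of the 31-base windows occur in other annotated genes. Atf4, the factor of the integrated stress response, had a log2 difference of 0.78 ± 0.12. The values of Id1, an inhibitor of helix-loop-helix factors, differed widely between clones within either group (317 to 3442 against 1191 to 8916), but not so far as to overlap within a genotype.

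Chromatin remodelling genes of long mRNAs fell. In this list, which was drawn up from long genes with earlier results known and is therefore no independent evidence of the direction, 36 of 39 fell and 0 rose (median −1.22, and −0.22 after removal of the length and GC trend), where 36.7% of all tested genes and 73.3% of those in the longest quintile of coding length fell. Their share of the reads was 0.334% to 0.449% in numbers 1 and 2, 0.118% to 0.160% in number 3 and 0.586% to 0.872% in total mRNA. Arid1a, a subunit of the SWI/SNF remodeller, had 1455 to 2787 (median 1762) in numbers 1 and 2 and 423 to 648 (median 569.8) in number 3, without overlap. The 2 highest values, 2787 and 2745, were those of WT clones 28 and 29 with number 2, and the log2 difference was −1.80 ± 0.15 (adjusted p = 3.1e-08). The nucleosome remodeller Chd3 fell by 1.96 ± 0.16 and Asxl1, a Polycomb-related regulator, by 1.67 ± 0.14 on the log2 scale.

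In lists of signalling and regulatory genes the counts are read against the 35.4% of all tested genes that were higher and the 36.7% that were lower. Of 31 genes of mTOR and lipid kinase signalling 7 rose and 14 fell (22.6% and 45.2%, median −0.16), with Tsc1 (−1.66 ± 0.17) and Rptor (−1.54 ± 0.16), which inhibit and build mTOR complex 1, lower, and the small Rheb (1.42 ± 0.16) and Lamtor3 (1.20 ± 0.13), which activate it, higher; Lamtor3 turned to −0.18 after removal of the trend. Of 29 autophagy genes 8 rose and 15 fell (27.6% and 51.7%, median −0.23), with the kinase Ulk1 at −1.26 ± 0.15 and the ubiquitin-like Gabarapl2 at 1.95 ± 0.12. Of 25 interferon response genes 5 rose and 12 fell (20% and 48%, median −0.35), with Stat2 at −1.36 ± 0.20 and Bst2 at 1.29 ± 0.20. Of 34 immediate early genes 12 rose and 3 fell (35.3% and 8.82%, median 0.18), so the share that rose was that of all genes, and of 28 p53 targets 8 rose and 6 fell (28.6% and 21.4%, median 0.11), both medians turning negative with the total scaling (−0.25 and −0.32). Each of these lists thus held members that moved in either direction. After removal of the length and GC trend, 8 of 31 mTOR genes were higher and 7 lower (median −0.016), and 9 and 8 of 29 autophagy genes (−0.018). Of 25 interferon genes 1 was higher and 9 were lower (−0.21), of 34 immediate early genes 13 and 5 (0.30), and of 28 p53 targets 7 and 8 (−0.033). Of all 10251 genes in that fit 27.9% were higher and 25.9% lower.

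Of 270 numbered zinc finger genes, 77 rose and 104 fell (28.5% and 38.5%, median −0.15), close to the shares of all tested genes (35.4% and 36.7%). Zfp646 (−2.05 ± 0.17) and Zfp740 (−1.58 ± 0.14), both DNA-binding proteins, fell. Of 25 genes of the interleukin-3 and STAT5 list, a pathway on which Ba/F3 cells depend, 8 rose and 7 fell (median −0.07, with −0.09 within R98S and 0.25 within WT, and 0.01 with a clone block), against 35.4% and 36.7% of all tested genes. The receptor subunit gene Csf2rb2 (−1.16 ± 0.17) and the signal transducer gene Stat5b (−1.35 ± 0.13) fell, and Id1, of the same list, was at 1.76 ± 0.20. The endoplasmic reticulum stress sensor Ern1 (−1.93 ± 0.16), Sel1l of endoplasmic reticulum-associated degradation (−1.43 ± 0.10), the arginine transporter Slc7a1 (−1.63 ± 0.14), the lysosomal protein Psap (−1.62 ± 0.12), Chaf1a of histone deposition (−1.58 ± 0.12), the fatty acid synthesis enzyme Acaca (−1.37 ± 0.16), the peptide transporter Tap2 (−1.18 ± 0.22) and the hexokinase Hk1 (−1.0 ± 0.10) fell as well. For Chaf1a, Acaca and Csf2rb2, 51.0%, 33.5% and 30.1% of the 31-base windows occur in other annotated genes.

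**Figure D5:**
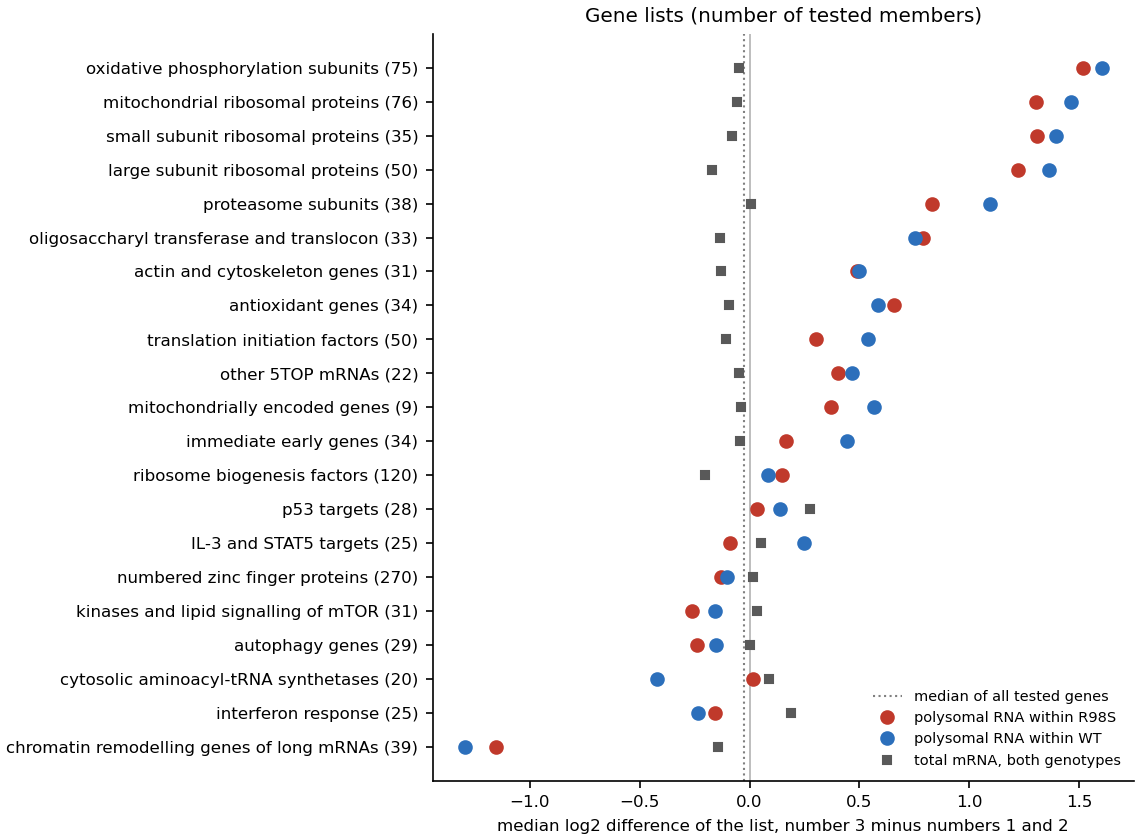
Median log2 difference between number 3 and numbers 1 and 2 for 21 gene lists (number of tested members in brackets) in polysomal RNA within R98S and within WT, and in total mRNA, on the deposited size factors; the dotted line is the median of all tested genes. In polysomal RNA the lists run from 1.58 for oxidative phosphorylation subunits to −1.22 for chromatin remodelling genes over both genotypes, and with other scalings the medians of other 5′TOP mRNAs, mitochondrially encoded genes, ribosome biogenesis factors, (quantile only) actin genes and (equal totals only) immediate early genes and p53 targets turn negative.

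The largest increases were not all of short coding genes. Lars2, the mitochondrial leucyl-tRNA synthetase (chromosome 9, 123366927 to 123462666, coding length 2706 bases), had 1422 to 10238 (median 2719) in the polysomal libraries of numbers 1 and 2 and 43655 to 151046 (median 84688) in those of number 3. In total mRNA it was at 24771 to 37972 (median 28733) and 24257 to 39411 (median 33863), so the groups overlapped there. The log2 difference in polysomal RNA was 4.68 ± 0.41 (adjusted p = 5.2e-08), and the highest library of numbers 1 and 2 was R98S clone 11 with number 1.

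The other genes at the top included 2 annotated as miRNA genes, Mir6236 and Gm23935, and the T cell receptor joining segment Trgj1. Mir6236 had 10.8 to 129 (median 23.8) and 453 to 1779 (median 935) (log2 difference 4.89 ± 0.52). The row is matched by the symbol of the precursor gene and says nothing of the mature miRNA, whose RefSeq sequence (chr9:110281353-110281371, GRCm38.p6, seed in capitals) is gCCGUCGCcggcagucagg. Gm15662 (4.81 ± 0.52), Gm23935 (4.55 ± 0.64) and Trgj1 (4.09 ± 0.63) rose as well. Mir6236, Gm15662 and Trgj1 passed the minimum mean of 100 for named genes only through number 3, as did Gm14444 and Kbtbd3 below. Gm23935 and Trgj1 share sequence with other genes, all 31-base windows of Gm23935 and 46.7% of those of Trgj1 occurring in other annotated genes. The ratio of Lars2 to Mir6236 was 76.7 to 170 in numbers 1 and 2 and 84.9 to 107 in number 3, and that of Lars2 to Gm15662 was 191 to 785 and 270.3 to 359.6. The ratio of Lars2 to Gm23935 varied more widely, at 5.68 to 61.0 and 24.9 to 42.5, the lowest in WT clone 28 with number 2. In total mRNA the ratio of Lars2 to Mir6236 was 65.4 to 82.0 in numbers 1 and 2 and 68.3 to 86.9 in number 3. What these rows share was not tested, nor was whether the Lars2 reads come from its coding mRNA.

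1810022K09Rik, with a coding length of 291 bases, rose with 282 to 635 (median 374) in numbers 1 and 2 and 3703 to 6119 (median 5471) in number 3 (3.6 ± 0.19). Gm13230 (3.32 ± 0.44), Gm14444 (2.99 ± 0.40) and Kbtbd3 (2.95 ± 0.33) also rose. These 3 were higher in total mRNA too, with log2 differences of 2.24, 1.67 and 1.08, and 38.7% and 82.0% of the windows of Gm13230 and Gm14444 occur in other genes.

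Among the largest decreases of named genes was Amer1. This gene, a negative regulator of Wnt signalling, had 237 to 329 (median 267) in numbers 1 and 2 and 24.3 to 84.6 (median 36.5) in number 3 (log2 difference −2.72 ± 0.22). Trim56, an E3 ubiquitin ligase with a transcript of 9279 bases, had 438 to 832 (median 668) in numbers 1 and 2 and 73.3 to 149 (median 102) in number 3 (−2.65 ± 0.18). The groups did not overlap in either case, and the lowest library of numbers 1 and 2 for Trim56 was WT clone 28 with number 2. Bahcc1 (−2.70 ± 0.24), the thioesterase Acot11 (−2.58 ± 0.24), the collagen gene Col11a2 (−2.39 ± 0.24), the integrin Itgb3 (−2.32 ± 0.25), the angiomotin-like Amotl1 (−2.32 ± 0.14) and the sialate esterase Siae (−2.31 ± 0.19) were also among them. Amer1, Bahcc1, Acot11, Col11a2 and Siae passed the minimum mean of 100 for named genes only through numbers 1 and 2, so nothing is read from this group as a whole.

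Length did not order every gene. In the shortest quintile of coding length 170 of 2050 genes fell, and in the longest 101 of 2051 rose. The genes named here for this were chosen after their values were seen. Mxd4, a repressor of the Myc network with a coding length of 627 bases, fell by 2.28 ± 0.18, and Coa5, an assembly factor of cytochrome c oxidase with 222 coding bases, by 1.53 ± 0.15. Their matched transcripts are 3872 and 3863 bases long. Trim14 (−1.70 ± 0.25), March2 (−1.44 ± 0.17), Cyb5d1 (−1.12 ± 0.25) and the Mediator subunit Med22 (−1.07 ± 0.12) fell with matched transcripts of 1429, 1398, 753 and 973 bases. All annotated transcripts of these 4 genes hold 4370, 6102, 1599 and 3642 distinct 31-base windows, which gives no length of a single transcript, and which transcripts were present was not tested. Of the windows of Cyb5d1 and Trim14, 45.4% and 36.4% occur in other annotated genes. The calcium channel gene Cacna1f, with 5952 coding bases, rose with 647 to 1517 (median 938) in numbers 1 and 2 and 1989 to 2878 (median 2244) in number 3 (1.30 ± 0.16), the corepressor Sin3b by 1.10 ± 0.14 and the scavenger receptor Stab1 by 0.97 ± 0.25. Dnajc15 (2.18 ± 0.15) and Timm17a (1.76 ± 0.12), which act in mitochondrial protein import, rose with short coding sequences and transcripts of 6193 and 7280 bases, and Afp, the fetal serum protein, rose by 2.15 ± 0.15 with 1815 coding bases.

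After removal of a smooth trend with transcript length, coding length and GC content, 5511 of 10251 genes still differed between number 3 and numbers 1 and 2. Of these, 2855 were higher (27.9% of tested genes) and 2656 lower (25.9%), and 774 differed by more than 2-fold. The list medians were then 0.53 for mitochondrial ribosomal proteins (56 of 76 higher and 4 lower), 0.40 for oxidative phosphorylation subunits (48 of 74 and 7), 0.22 and 0.11 for large and small subunit ribosomal proteins, 0.23 for proteasome subunits (19 of 38 and 3) and −0.22 for chromatin remodelling genes (3 of 39 and 15). The trend is fitted on the same libraries, so it takes with it any change that goes with length for another reason.

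Far fewer genes differed in total mRNA. In the 14 total mRNA libraries with the same clone and number as a polysomal library, 533 of 11133 tested genes (4.79%) differed between number 3 and numbers 1 and 2, 367 higher (3.30%) and 166 lower (1.49%), against 72.1% in polysomal RNA. Leaving out 1 library moved the count to between 248 (without WT clone 28 of number 3) and 1106 (without R98S clone 35 of number 2). The total mRNA difference went with GC content, with a Spearman rho of −0.31 across genes, and 13.8% of the lowest GC quintile but 0.195% of the highest were called higher. The part of GC content in these calls was not tested. Of the 527 of these that were also tested in polysomal RNA, 424 were called there, 352 with the same sign. The difference between polysomal and total mRNA of the same clone and number changed between number 3 and numbers 1 and 2 for 6831 of 10627 genes (64.3%). After removal of the length and GC trend it changed for 4435 of 10214 (43.4%). Without that removal, 6292 of 7667 genes called in polysomal RNA and tested here were called with the same sign. Rpl34, for example, was at 9218 to 16168 (median 13315) in total mRNA of numbers 1 and 2 and at 9950.3 to 14996 (median 12508) in that of number 3, and its polysomal minus total mRNA log2 difference rose by 2.74.

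Of the 3 genes whose shift differed between the genotypes, 2 are described. Ptprcap, which binds the CD45 phosphatase, was at 355 to 404 in the 5 R98S libraries of numbers 1 and 2 and at 912, 1301 and 923 in number 3. In WT it was at 3.85, 7.99 and 2.93 in numbers 1 and 2 and at 0 in all 3 libraries of number 3. WT levels were thus close to the limit of detection throughout, the fitted WT difference depends on the pseudocount, and 96.6% of the windows of this gene also occur in other genes. Lcp1, the leukocyte actin bundler plastin, was at 3092, 2843 and 3593 in the WT libraries of number 3, below the 7922 to 9922 of numbers 1 and 2, with log2 differences of 0.07 within R98S and −1.48 within WT. With 1 library left out the difference between the genotypes for Lcp1 was no longer called in 11 of 14 fits (adjusted p 0.0629 to 0.21 over the 14), while Ptprcap was called in all 14.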

How the data were processed

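Values were the deposited per-gene read counts divided by DESeq2 size factors (a signal never below 0), 1 table for 14 polysomal and 1 for 17 total mRNA libraries, normalized separately by the authors. Per the labels and methods, poly(A) RNA was sequenced with a stranded kit (TruSeq), the leading base was trimmed with seqtk, rRNA and tRNA reads were removed with Bowtie2, and reads were aligned to mm10 with TopHat 2.0.11. Alignments of mapping quality 10 or more were counted on exons (HTSeq and SAMtools appear in the submitters' processing notes). Whether strand was used is not given in the sources used here. The deposited signal gave back whole read counts for 100% of values, which were used in the DESeq2 1.42.0 and edgeR 4.0.16 alternatives.

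Groups, clones and numbers came from the labels. The main test was limma 3.58.1 (R 4.3.3, eBayes with trend, two-sided) on log2(value + 1) of genes with a mean of at least 10, with genotype as a covariate, and a gene was called at a Benjamini-Hochberg adjusted p below 0.1. A fit with 4 groups gave the comparisons within genotypes, and a fit with 3 numbers those between numbers. Polysomal and total mRNA were compared through the polysomal minus total mRNA log2 value of each of the 14 pairs of libraries with the same clone and number. Nothing in the labels says whether libraries of 1 clone come from separate cultures, so p-values measure the spread between these libraries, which may be technical. Every pair of libraries of a group differed by more than sampling noise. Gene positions, transcript properties and the 31-base windows came from GENCODE (GRCm38). Start windows and the miRNA sequence came from RefSeq (GRCm38.p6). Of 41255 symbols, 36776 matched GENCODE directly, 991 by a RefSeq synonym and 3488 not at all. The main fit was also run on simulated data with few changed genes and no clone structure, which does not test it under a shift as wide as this.

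The members and the 42 gene lists, 21 of which are plotted, were chosen with earlier results of these data known, and subgroups by length or subcomplex after values were seen. Named genes were up to 10 per direction with the largest log2 difference among calls (mean normalized read count of 100 or more, groups apart within each genotype), up to 4 per list with the smallest adjusted p, up to 5 per direction for polysomal minus total mRNA, and Rpl10. List members that did not move with their list, length exceptions and total mRNA examples were named after their values were seen. Some genes that these rules name are not reported here. Alternatives were a pseudocount of 5, no filter or a mean of at least 50, TMM and quantile normalization, removal of a length and GC trend, a clone block, leaving out each number and each library, all 17 total mRNA libraries and, added after the data were seen, equal library totals, leaving out WT clone 28 and DESeq2 between numbers 2 and 1.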

Additional observations from a re-analysis of the deposited data

Results flagged for a closer look

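In the 5 R98S libraries of numbers 1 and 2, the library of clone 11 with number 1 stood apart from the other 4 for 7 of the named genes. It was the highest for Mir6236 (128.6 against 11.1 to 30.7), Lars2 (10240 against 1422 to 3072), Rps27l (2715 against 1807 to 2057), Hist1h1e (29.4 against 5.78 to 9.10), Hspe1 (3618 against 1913 to 2308) and B2m (7241 against 4320 to 4661), and the lowest for Bst2 (591 against 831 to 904). For the first 6 genes it lay on the side of number 3, and for Bst2, which was higher in number 3, on the other. These are 7 of 123 groups examined by Dixon's criterion, which chance alone exceeds in about 1 in 20 groups. Without the number 1 library of clone 11, 6379 genes were called within R98S, against 6486 with it.

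The shift between number 3 and numbers 1 and 2 differed between R98S and WT (limma interaction term over 10707 genes) for Ptprcap, with a difference of 3.92 on the log2 scale (adjusted p = 3.0e-04) and Lcp1, with 1.55 (adjusted p = 0.080). Lcp1 was lower in number 3 in all 3 WT libraries than in every WT library of numbers 1 and 2, but its call was lost in 11 of the 14 fits with 1 library left out (adjusted p 0.0629 to 0.21 over the 14) and kept in 3, those without number 1 of WT clone 29 and without number 3 of R98S clones 13 and 35. It was also lost with all genes tested (adjusted p = 0.135). The WT values of Ptprcap were between 0 and 7.99 normalized reads throughout.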

How the results depend on the processing

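With a clone block (no block for the replicate number, which is the contrast), 8005 genes were called in polysomal RNA, 6491 for polysomal minus total mRNA and 310 in total mRNA. The total number of calls for number 3 in polysomal RNA stayed within 1.5 times under every alternative run: leaving out 1 library gave 7411 to 7975, edgeR gave 7710 and DESeq2 7713, and between numbers 2 and 1 DESeq2 called 1 gene and every other alternative run for that comparison 0. With equal totals the higher calls fell from 3794 to 2290 (3203 to 1810 within R98S, 3292 to 2055 within WT), and removal of the trend took the calls over 2-fold from 3123 to 774. The count for the difference between genotypes was 55 with DESeq2 and 1 to 46 with 1 library left out, the highest without the number 1 library of WT clone 29, so it rests on single libraries. In total mRNA the count was 307 with all genes, 902 with all 17 libraries and 248 to 1106 with 1 library left out, lowest without WT clone 28 and highest without R98S clone 35 of numbers 3 and 2. Polysomal minus total mRNA fell to 4435 after removal of the length and GC trend. The cause of these changes was not tested.

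Of 129 values of named genes, 103 kept their direction and their side of the threshold under every alternative. After removal of the length and GC trend, the log2 difference was −0.059 for Rpl10, −0.089 for Rps27l, −1.86 for mt-Atp8, −1.04 for mt-Nd2, −0.85 for mt-Cytb, −0.18 for Lamtor3, −0.45 for B2m, −0.99 for Rpl23a, −0.22 for Rpsa and 0.10 for Atp5a1. With quantile normalization it was −0.055 for mt-Cytb, −0.61 for Rpsa, −0.26 for Uqcrc1 and −0.74 for Atp5b, and with equal totals −0.29 for Rpsa, −0.16 for Uqcrc1 and −0.29 for Atp5b. Atp5a1 was 0.014 without number 2 and −0.12 to 0.028 with 1 library left out. List medians turned for other 5′TOP mRNAs (−0.22 quantile, −0.0022 equal totals, −0.0035 trend removed), aminoacyl-tRNA synthetases (0.15 trend removed), mitochondrially encoded genes (−0.057, −0.11 and −1.86), ribosome biogenesis factors (−0.037 quantile, −0.31 equal totals), actin genes (−0.0899 quantile), immediate early genes (−0.25 equal totals, −0.00031 without number 2), p53 targets (−0.32 equal totals, −0.033 trend removed) and IL-3 and STAT5 targets (0.014 clone block, −0.12 to 0.0074 with 1 library left out, the highest without WT clone 28 of number 2). The values of Rps18 and the histone genes rest on few reads.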

Other observations

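Some glycolysis genes fell in total mRNA of number 3. Of 19 glycolysis genes 5 fell and 0 rose there (against 1.49% and 3.30% of all tested genes), and the others did not pass the test. The median of the 19 was −0.45. Pgk1, phosphoglycerate kinase, had 11054 to 32061 (median 18686) in numbers 1 and 2 and 6800.1 to 15098 (median 9019) in number 3, a log2 difference of −1.01 (limma, adjusted p = 0.023), and Eno1, enolase, had −0.91 (adjusted p = 0.022). P4hb, protein disulfide isomerase and prolyl hydroxylase subunit, had −1.03 (adjusted p = 0.037). In polysomal RNA the same 3 genes were at 0.28 ± 0.12, −0.41 ± 0.12 and −0.40 ± 0.12. Of 21 hypoxia response genes, which include some of these enzymes, 3 fell and 0 rose in total mRNA.

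Of the numbered zinc finger genes, more rose than fell in total mRNA, with 19 of 270 higher and 5 lower (3.30% and 1.49% of all tested genes). The median GC content of the list was 45.0%, and of all genes in the lowest and the second GC quintile 13.8% and 1.96% were higher. The part of GC content was not tested. Zfp808 had 43.1 to 400.4 (median 81.9) in numbers 1 and 2 and 230.1 to 612 (median 340.1) in number 3 (log2 difference 1.76, adjusted p = 0.041) and Zfp758 had 17.6 to 187 (median 54.5) and 108 to 244 (median 158) (1.64, adjusted p = 0.026). In polysomal RNA both also rose, by 1.96 ± 0.41 and 2.24 ± 0.35, although more of the 270 genes fell there than rose. Of the 31-base windows, 54.7% of Pgk1 and 43.2% of Zfp808 occur in other annotated genes, and the genes named here were chosen after their values were seen.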
